A study of Mus musculus with 4 samples.

Results

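Stable overexpression of the splice variant Fbxw11c was compared with the control line in L1210, an established lymphocytic leukemia cell line of DBA mice. Both arrays of this comparison, and all genes they measured, are described here. Of the 4 arrays in the series, these 2 make up the contrast, and 17734 of the 24561 gene symbols on the array design could be compared. L1210-Fbxw11c cells carried a lentivirus encoding an Fbxw11 variant with an in-frame deletion of exon 2, and what the virus of the L1210-control cells carried is not given in the sources used here. Per the labels, cells of all lines were lentivirally infected, sorted for GFP as stable populations and lysed in Trizol, and all were kept in RPMI medium with serum. The L1210-Fbxw11a line (full-length variant) and the L1210-Fbxw11d line (without exons 2 and 3) served as references here. Each line was measured once, so no difference has a replicate check, no p-value is given, and a line and its single culture cannot be told apart.

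Fbxw11, also called β-TrCP2, is the substrate-binding F-box subunit of an SCF ubiquitin ligase, in which Skp1, Cul1 and Rbx1 form the core. It recognizes phosphorylated IκB, whose destruction releases NF-κB into the nucleus, and phosphorylated β-catenin, the effector of canonical Wnt signalling. NF-κB in turn drives chemokine, cytokine and survival genes, together with its own inhibitors.

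Signals are those of the scanner software after background subtraction, scaled to each array's 75th percentile and then brought to the L1210-control level. Log2 ratios are L1210-Fbxw11c over L1210-control. Probes entered the comparison when either array read them well above background. If only 1 array did, the ratio is a bound and is written "at least". A gene with several probes is represented by the one with the highest mean log2 level over all 4 arrays. Genes whose brighter signal exceeded 1000 before scaling are called bright. Both arrays lay on slide 1. No gene spot was saturated, and 62.5% of probes on the L1210-control array and 64.3% on the L1210-Fbxw11c array were well above background. From probes printed on 10 spots, the median SD of a ratio between single spots was 0.46 on the log2 scale at signals of 30 to 100, 0.18 at 100 to 300, 0.090 at 300 to 1000, 0.091 at 1000 to 3000 and 0.082 above 3000. These SDs cover the array alone, not the growing or sorting of cells or the preparation of RNA.

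The labelled cell type was set against its markers first. Coro1a, an actin regulator of leukocytes, gave 1417 in L1210-control and 1061 in L1210-Fbxw11c. Ptprc (CD45) was close to background, at 42.9 and 29.7, and Laptm5 was not well above background on either array. Of 16 B lineage markers, the L1210-control array read 9 well above background and the L1210-Fbxw11c array 8, with Blnk at 18268 and 22418 and Cd24a at 7744 and 10508. The defining B cell genes Cd79b, Ms4a1, Ebf1, Igll1, Rag1, Rag2 and Cd72 were not well above background. Cd3e and Cd4, T lineage genes, gave 1293 and 3020 in L1210-control and 1478 and 3071 in L1210-Fbxw11c. A dimmer Cd4 probe gave 72.4 and 63.0. Among 17 myeloid markers, 15 and 14 were well above background, led by Csf3r, the G-CSF receptor, at 56408 and 59142. Of the 15 measured myeloid genes 10 lay below 0, with a median of -0.17, among them Cd68, a macrophage lysosomal protein, at 7276 and 4565. The summed signal of the B lineage list was 26726 in L1210-control and 33542 in L1210-Fbxw11c, that of the T lineage list 6418 and 7124, and that of the myeloid list 74057 and 72748, or 17649 and 13606 without Csf3r. Lymphoid genes were thus read in part, several defining B and T cell genes were not well above background on either array, and myeloid genes were among the brightest of these lists. Of 31 transcription factors of blood cells 22 were measured. Spi1, Ikzf1, Ikzf2, Tal1, Lmo2, Fli1, Erg, Myb and Irf4 were not well above background on either array. Krt8 and Krt18, keratins of simple epithelia, read 60308 and 60374 in L1210-control, brighter than every marker named above. What these levels mean for the labelled cell type was not tested. The part of these differences in marker sums in the results below was not tested.

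Fbxw11 was read by a pair of probes, which start at bases 3692 and 3803 of the transcript and begin with the following 30 bases.

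Fbxw11 probe at base 3692: gttaaagcactggggtagtctaattctaac
Fbxw11 probe at base 3803: tatcatgacggctttgtactgtggaatgtg

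The probe at base 3803 gave 13153 in L1210-control and 15871 in L1210-Fbxw11c, a log2 ratio of 0.27. The probe at base 3692 gave 9730 and 11327, a log2 ratio of 0.22. Whether the viral transcript carries these bases is not given in the sources used here, so the probes do not check the label. Other members of the ligase were all under 2-fold. Skp1a gave a log2 ratio of 0.24, Cul1 of -0.06, Rbx1 of 0.01 and Btrc, the gene of the paralog β-TrCP1, of -0.07, with 0.28 from its dimmer probe. None of the 16 measured genes of the SCF core passed 2-fold, and their median was 0.08 (0.03 to 0.16 under the other scalings) beside 0.02 over all genes compared.

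Most transcripts differed little between both lines. Over 7922 bright genes the median log2 ratio was 0.05, the SD was 0.22 and 98.0% lay within 1.5-fold. Of these, 35 differed at least 2-fold, 16 higher and 19 lower in L1210-Fbxw11c, which is 0.442% of bright genes. By direction these were 0.202% and 0.24%. Over all 17734 genes the calls were 286 higher (1.61%) and 402 lower (2.27%), or 3.88%. By probe, 627 of 37027 were higher (1.69%) and 1028 lower (2.78%), or 4.47%. Of 11869 bright probes 19 were higher (0.16%) and 23 lower (0.194%), or 0.354%. Of 25158 probes at a signal of 1000 or less, 608 were higher (2.42%) and 1005 lower (3.99%), or 6.41%.

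**Figure D1:**
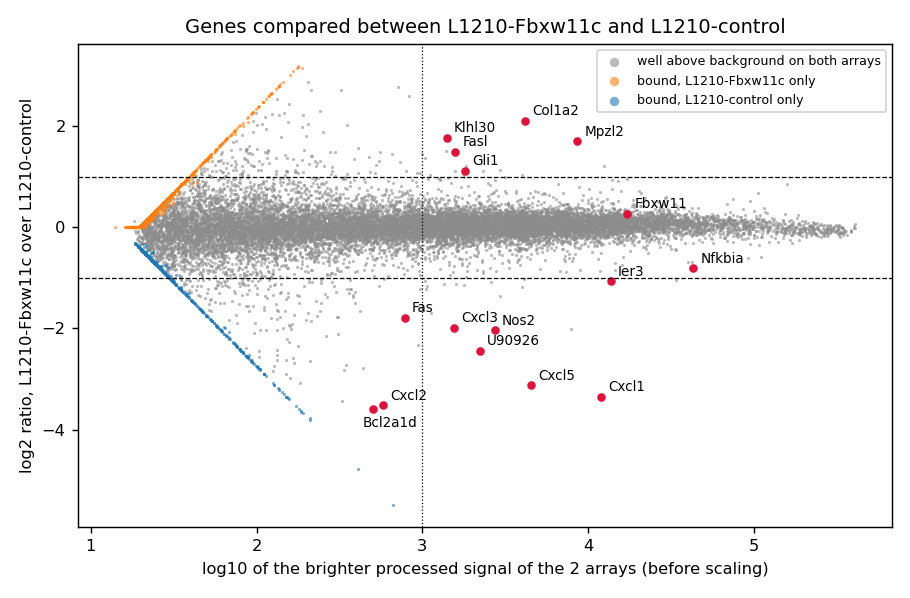
Each point is a gene, with the log10 of its brighter signal on the x axis and its log2 ratio (L1210-Fbxw11c over L1210-control) on the y axis. Grey genes were well above background on both arrays, orange and blue genes on 1 array only, where the ratio is a bound, and red points are genes named in the text. Dashed lines mark 2-fold and the dotted line a signal of 1000, to the right of which 35 of 7922 genes lie beyond 2-fold, led by Cxcl1 and Cxcl5 below and Col1a2 above.

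The dim calls were spread unevenly over the array. At signals of up to 100, 7.20% of probes in rows 1 to 48 were called higher and 14.4% lower, against 0.591% and 0.473% in rows 337 to 384. At 100 to 1000 the shares were 6.09% and 10.6% in rows 1 to 48 and 0.136% and 0.341% in rows 337 to 384. Bright probes showed no such gradient, with 0.209% higher and 0.209% lower in rows 1 to 48 and 0.209% and 0.139% in rows 337 to 384. Of 1607 called dim probes printed on 1 spot, 1030 lay in rows 1 to 96 (64.1%), where 26.5% of the compared dim probes lay. The called dim spots were also less even. Among probes of signal 50 to 1000 called lower, 56.1% had a pixel SD over 0.3 of the spot's mean signal on the L1210-control array, and among those called higher 46.5% had on the L1210-Fbxw11c array. Of probes under 2-fold, 0.708% and 0.683% had. The part of place and evenness in the dim results was not tested. Below, a called dim gene is marked where its spot was uneven or lay in rows 1 to 96.

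**Figure D2:**
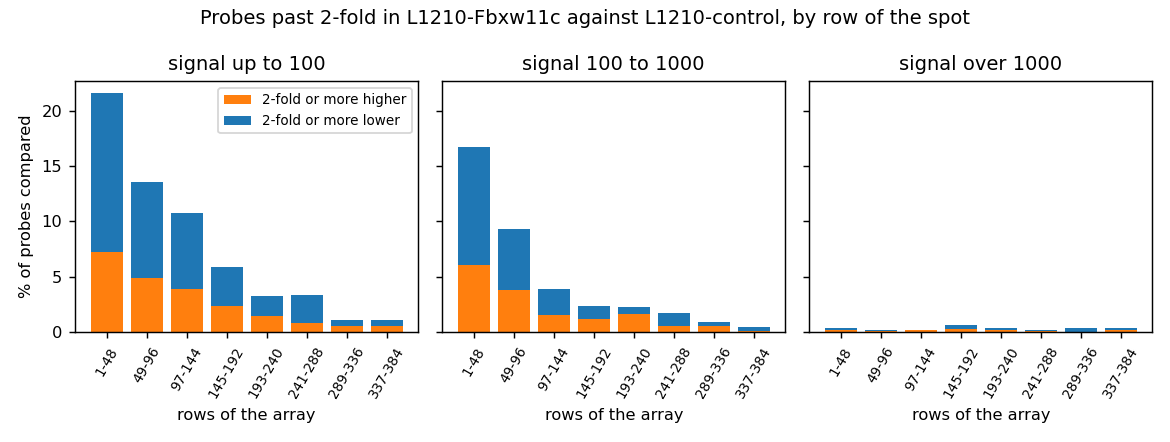
Stacked bars give the percentage of compared probes, printed on 1 spot each, that were at least 2-fold higher (orange) or lower (blue) in L1210-Fbxw11c, in 8 blocks of array rows and 3 bands of signal before scaling. The share falls from 7.20% higher plus 14.4% lower in rows 1 to 48 to under 1% each in the last rows at signals of up to 100, and stays under 0.4% in either direction for bright probes.

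NF-κB target genes held the largest decreases among bright genes of the L1210-Fbxw11c line, Cxcl1 and Cxcl5. Of 21 measured targets, 9 were at least 2-fold lower and 0 higher, beside 2.27% of all genes called lower. Their median log2 ratio was -0.61, against 0.02 over all genes. All 9 were read by even spots on both arrays, and 2 of them lay in rows 1 to 96. The list's median was between -0.65 and -0.53 under the other scalings. The chemokines Cxcl1, Cxcl2 and Cxcl3 share a κB-type site in their promoters, which are shown with that of Nfkbia, the gene of IκBα, because the chemokines were among the lowest genes and Nfkbia is both an inhibitor and a target of NF-κB. The sequences are the 130 bases before the RefSeq start in GRCm38.p6, on chr5:90891115-90891244 (+), chr5:90903769-90903898 (+), chr5:90785971-90786100 (+) and chr12:55492648-55492777 (-) in the order given. Capitals mark matches, on either strand, to a κB-type motif of GGGA, any 2 bases and TTCC.

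Cxcl1: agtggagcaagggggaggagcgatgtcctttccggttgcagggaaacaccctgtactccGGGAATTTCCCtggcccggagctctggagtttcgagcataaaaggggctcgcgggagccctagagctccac
Cxcl2: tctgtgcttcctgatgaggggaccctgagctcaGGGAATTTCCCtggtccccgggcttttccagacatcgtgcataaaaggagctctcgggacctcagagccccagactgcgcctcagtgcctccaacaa
Cxcl3: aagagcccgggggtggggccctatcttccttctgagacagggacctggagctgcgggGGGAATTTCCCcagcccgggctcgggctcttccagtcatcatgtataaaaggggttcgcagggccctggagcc
Nfkbia: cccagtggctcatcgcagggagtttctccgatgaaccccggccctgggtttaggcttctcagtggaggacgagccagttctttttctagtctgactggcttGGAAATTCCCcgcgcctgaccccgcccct

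In each chemokine promoter the match on the upper strand overlapped one on the lower strand, and its first base lay 71 bases before the start in Cxcl1, 97 in Cxcl2 and 73 in Cxcl3. In Nfkbia the match was on the lower strand, 29 bases before the start. The motif occurred within the 250 bases before the start in 1.21% of 32851 promoters and in 98 of the 5874 bright genes with a promoter entry (1.67%). Of 19 bright genes called lower, 10 had a promoter entry and 2 held the motif, and Cxcl5 and Nos2 were among those with no entry. Of 16 called higher, 11 had an entry and 0 held it. The 2 with the motif were Cxcl1 and Cxcl3, which lie in the same chemokine cluster. Among the dimmer NF-κB targets called lower, Cxcl2 and Il6 held the motif. So did Csf1, Cxcl10, Nfkb2, Nfkbia and Map3k7, none of which passed 2-fold.

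Cxcl1, a neutrophil-attracting chemokine (probe at chr5:91321845-91321904, mm9), read 11997 in L1210-control and 1175 in L1210-Fbxw11c, a 10.2-fold decrease (log2 ratio -3.35). Cxcl5, another ligand of the same receptor family (chr5:91190490-91190549), went from 4509 to 518, a log2 ratio of -3.12. Cxcl3 (chr5:91216694-91216753) went from 1552 to 392, a log2 ratio of -1.98. These decreases exceeded the SD between spots by far, and their probes lay in rows 289, 145 and 321. Cxcl2 (chr5:91334534-91334593) was dimmer, at 578 and 50.4, a log2 ratio of -3.52 from even spots in row 290. All 4 genes lie within the chemokine cluster of chromosome 5.

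Other chemokines gave smaller ratios at bright signals. Cxcl16, a membrane-bound chemokine, was lower at 1357 and 625 (log2 ratio -1.12). Cxcl10, an interferon-induced chemokine, gave 7652 and 5032 (-0.60), below the 2-fold line. Cxcl11 gave 201762 and 204728 (0.02), and Ccl2, a monocyte attractant, 996 and 1102 (0.15). In all, 7 of 19 measured chemokines were called lower (36.8%, beside 2.27% of all genes) and 0 higher, with a median of -0.13 that was -0.06 under each other scaling. Xcl1 and Ccl17 completed the 7. Xcl1 was a bound from an uneven control spot in row 17, at 99.0 against 3.24, and Ccl17 gave 43.5 and 19.5.

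Nos2, the inducible nitric oxide synthase, gave 2737 in L1210-control and 669 in L1210-Fbxw11c, a log2 ratio of -2.03. Among dimmer targets, Lcn2, an iron-binding acute phase protein, gave 350.0 and 149.9 (log2 ratio -1.22), Birc3, an inhibitor of apoptosis, 245 and 114 (-1.10), and Vcam1, an adhesion molecule, 58.8 and 26.6 (-1.14). Il6 was at least 6.98-fold lower, with 104 in L1210-control and a signal not well above background in L1210-Fbxw11c, and Csf2 (GM-CSF) gave 74.7 and 22.5 (-1.73). Il6 and Csf2 were in rows 75 and 13. Ptgs2 (cyclooxygenase 2), at 5155 and 2895 (-0.83), and Csf1 (M-CSF), at 2717 and 1786 (-0.61, with -0.32 from each of its other probes), did not pass 2-fold. Sod2, the mitochondrial superoxide dismutase, at 56778 and 61811 (0.12), and Irf1 (-0.04) stood close to equal.

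The inhibitors and subunits of NF-κB itself showed smaller differences at bright signals. Nfkbia gave 43025 in L1210-control and 24464 in L1210-Fbxw11c, a log2 ratio of -0.81. Nfkbie (IκBε) gave 1729 and 1053 (-0.72), and Nfkbib (IκBβ) gave 6916 and 5111 (-0.44), with -0.42 and -0.44 from its other probes. Of the subunits that NF-κB itself induces, Relb gave 3026 and 1858 (-0.70), with -0.63 and -0.08 from its dimmer probes. Nfkb2 gave 4435 and 2863 (-0.63). Rela, the p65 subunit, gave 21966 and 20666 (-0.09). Tnfaip3 (A20), a feedback inhibitor, gave 1409 and 1437 (0.03), and Map3k14 (NIK), the kinase of the alternative pathway, 2655 and 3572 (0.43). Ikbke, an IκB kinase relative at 286 and 135 (-1.08), was the 1 call among 23 measured genes of this family (4.35%, beside 2.27% of all genes called lower), whose median was -0.09 (-0.14 to -0.02 under the other scalings).

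Of 21 measured interleukins and growth factors of blood cells, 4 were called lower (19.0%, beside 2.27% of all genes) and 1 higher (4.76%, beside 1.61%). Their median of -0.50 became -0.30 with normexp, and 4 of the 5 calls lay in rows 1 to 96. Of the 21 genes, 18 were well above background on both arrays. The lower calls of Ifnb1, Il6 and Csf3 were bounds, from genes that entered through the L1210-control array alone. Csf2 was the only lower call read on both arrays. The 19.0% thus rests largely on genes admitted by the array on which they were high. Ifnb1 (interferon β) was at least 27.6-fold lower by its bound, with 410 in L1210-control, but that spot had a pixel SD of 0.58 of its mean and lay in row 34. Csf3 (G-CSF) was at least 5.14-fold lower, from 76.3 in row 90. Il1rn, the interleukin 1 receptor antagonist, was higher, at 54.2 and 108.

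Fas, a death receptor, and its ligand gave ratios in opposite directions. Fas gave 780 in L1210-control and 226 in L1210-Fbxw11c (log2 ratio -1.79, even spots in row 8). Fasl, the ligand, gave 517 and 1453 (1.49). Tnfsf18, the ligand of GITR, was higher at 91.3 and 256 (1.49), and Cd27, a costimulatory receptor, at 27.8 and 64.7 (1.22). These 4 were the calls among 18 measured TNF family genes, with 3 higher (16.7%, beside 1.61% of all genes) and 1 lower (5.56%, beside 2.27%). The list's median was -0.01 and turned to 0.05 with median centring. Among 13 measured Bcl2 family genes 1 was called lower (7.69%, beside 2.27% of all genes) and 0 higher. The call was Bcl2a1d (A1), an NF-κB-linked survival gene, at 507 and 42.2 (-3.59, row 244). Bcl2l1 (Bcl-xL) gave 16022 and 13409 (-0.26, with -0.54 from its dimmer probe).

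Other bright genes called lower were of mixed function. U90926, a short transcript on chromosome 5, gave 2219 and 410.0 (log2 ratio -2.44). Fam213a, a redox protein now named Prxl2a, gave 7875 and 1948 (-2.01). Slc2a6, a sugar transporter, gave 2938 and 1147 (-1.36), and Upp1, uridine phosphorylase, 3999 and 1767 (-1.18). Second probes of Slc2a6 and Upp1 read -1.02 and -0.91 at dimmer signals. Plscr2, a phospholipid scramblase, gave 1066 and 477 (-1.16). Ier3, an immediate early gene of apoptosis control, gave 13652 and 6495 (-1.07). Gm10634, at 1127 and 346, Gm1966, at 1048 and 448, and Gm8995, at 1777 and 804, have no known role given here. Cnfn, cornifelin of the skin's horny layer, gave 33977 and 16469, and Aqp1, a water channel, 4116 and 2024. The others called lower were Slurp1 (-1.13), Gvin1 (-1.08) and Aloxe3 (-1.06).

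Of the 16 bright genes called higher in L1210-Fbxw11c, Col1a2, the α2 chain of type I collagen, had the largest increase, from 888 to 3819, a 4.30-fold difference (log2 ratio 2.10). Mfap5, a microfibril protein, gave 991 and 2136 (1.11). The partner chain Col1a1 was dim at 44.4 and 57.6 (0.38). Of 19 measured collagens 2 were called higher (10.5%, beside 1.61% of all genes) and 0 lower, with a median of 0.18 (0.06 with normexp), while of the 3 bright ones 2 lay below 0, at a median of -0.22. Of 7 measured fibroblast and stromal genes 4 lay below 0, with a median of -0.17. Of 12 fibroblast and stromal markers, the L1210-control array read 6 well above background and the L1210-Fbxw11c array 7, with summed signals of 28006 and 25576. S100a4 made up most of that sum, and without it the list summed to 1373 and 4255, of which Col1a2 held 888 and 3819. Lum, Pdgfrb, Thy1, Fbn1 and Postn were not well above background on either array. Krt27 gave 449 and 1283 (1.51), and Krt17 was dimmer at 22.7 and 64.9 (1.52). Krt8 and Krt18, the keratins of simple epithelia, gave 60308 and 86925 (0.53) and 60374 and 96980 (0.68). The 24 measured keratins had a median of 0.20 (0.13 to 0.27 under the other scalings). Krt27 and Krt17 were the 2 calls (8.33% higher, beside 1.61% of all genes).

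Mpzl2, an adhesion protein of the immunoglobulin superfamily, gave 2436 and 7910 (log2 ratio 1.70). Klhl30, a Kelch protein, gave 379 and 1295 (1.77). Anxa8, a calcium-dependent membrane-binding protein, gave 4962 and 11548 (1.22), and its second probe read 1.08. Hsd3b6, a steroid dehydrogenase, gave 368 and 953 (1.37), Acox2, a peroxisomal oxidase of bile acid synthesis, 729 and 1681 (1.21), and Pla2g2e, a secreted phospholipase A2, 1239 and 2697 (1.12, with 0.75 from its second probe). Lypd3 gave 664 and 1443 (1.12). Gli1, a transcription factor and target of Hedgehog signalling, gave 773 and 1678 (1.12). Fbln2 (1.05), Prickle1 (1.04), Ak1 (1.03) and C330022B21Rik (818 and 1639) were also called higher.

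**Figure D3:**
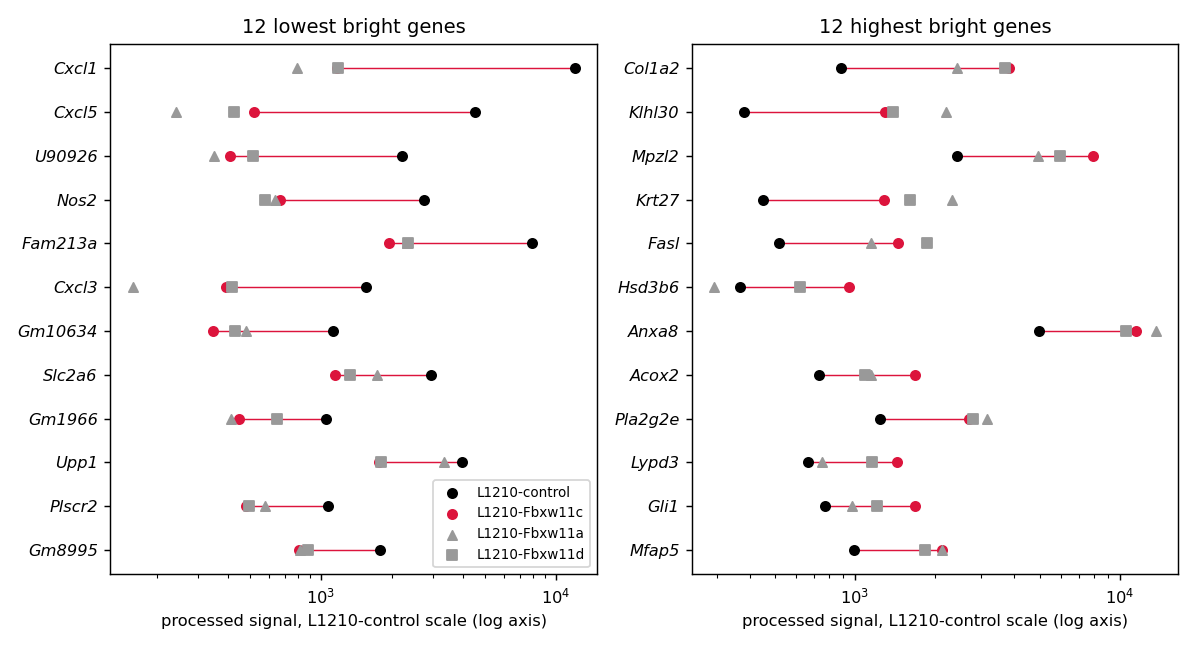
Signals of the 12 lowest and 12 highest bright genes by log2 ratio, 1 point per array on a log axis scaled to the L1210-control array. A red line joins L1210-control (black) with L1210-Fbxw11c (red), and grey triangles and squares give L1210-Fbxw11a and L1210-Fbxw11d. Cxcl1 stands at 11997 in L1210-control and at 793 to 1181 on the other 3 arrays, while Hsd3b6 is at 294 in L1210-Fbxw11a, below the 368 of L1210-control.

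Levels of these genes in the other lines, which share the control array, were as follows. Cxcl1 was 793 in L1210-Fbxw11a, below the 1175 of L1210-Fbxw11c, and 1181 in L1210-Fbxw11d. Nos2 was 639 and 579. Fasl was 1145 and 1877, and Col1a2 2419 and 3688. Upp1 was 3347 in L1210-Fbxw11a, nearer to L1210-control, and 1791 in L1210-Fbxw11d, nearer to the 1767 of L1210-Fbxw11c. Gli1 gave 974 and 1208, and Lypd3 748 and 1156, both below their L1210-Fbxw11c levels.

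Between signals of 100 and 1000, 109 of 5163 genes were called higher and 136 lower. When only even spots in rows 193 to 384 were counted, a choice made after the pattern over rows was seen, 26 higher and 20 lower were left of 2566 genes. Cyp11a1, the first enzyme of steroid hormone synthesis, gave 95.2 and 654 (log2 ratio 2.78, row 28), and Prss23, a secreted serine protease, 126 and 761 (2.60, row 370), both from even spots. Mptx1, at 182 and 21.4 (-3.08, row 30), and Lilrb4, an inhibitory receptor now named Lilrb4a, at 125 and 17.4 (-2.84, row 193), were also read by even spots. Gm2085 gave 45.5 and 222.8 (2.29) from even spots. Of 16 genes named at this signal, 9 had an uneven spot on 1 or both arrays, and 9 lay in rows 1 to 96. Among them, Sema4f went from 326 to a 10.9-fold lower level, Ccdc169 from 335 to 47.6, Tex43 from 151 to 20.3 and Vmn2r72 from 160 to 20.2. F11 went from 25.6 to 188, C7 from 30.1 to 197, Lipo1 from 45.9 to 299, Mamdc2 from 21.0 to 122 and H60c from 26.8 to 144. A second probe of Ccdc169, in row 301, read -0.09.

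Further even-spot genes at this signal were picked out after their values were seen. Serpina3g gave 441 in L1210-control and 64.0 in L1210-Fbxw11c (log2 ratio -2.79), Serpina3f 940 and 188 (-2.32, with -1.78 from its second probe) and Serpina3i 123 and 35.4 (-1.79, with a bound of at most -0.92 from its second probe). These serine protease inhibitor genes are neighbours on chromosome 12 (chr12:105480045-105480104 for the Serpina3g probe and chr12:105504738-105504797 for that of Serpina3i, mm9). Zc3h12a, an RNase that degrades inflammatory mRNAs, gave 165 and 27.6 (-2.58), and Map3k8, a kinase downstream of IκB kinase, 307 and 89.3 (-1.78). Slc7a11, the cystine transporter, gave 167 and 26.2 (-2.67, row 16). Higher were Il17re, an interleukin 17 receptor chain, at 33.9 and 143 (2.08), and Vgf, a neuropeptide precursor, at 127 and 375 (1.56). Me3, mitochondrial malic enzyme, gave 63.2 and 233 (1.88), and its second probe read 1.33.

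Genes well above background on 1 array only gave the largest bounds, and all 10 named here had an uneven spot and lay in rows 1 to 96. Kpna7 was at least 44.8-fold lower, followed by Ifnb1 at least 27.6-fold and by Olfr102, Serpina3m and Zkscan16 with smaller bounds, that of Zkscan16 being at least 12.7-fold. Higher were Thsd4, Gm5142, Olfr117, Zfp641 and Hist2h3c2, with bounds from at least 8.51- to at least 9.11-fold. The brightest probe with such a bound has no gene symbol (chr4:56618067-56618126, mm9). Its spot, in row 344, gave 43399 on the L1210-Fbxw11c array before scaling, and 5.17, 5.88 and 16.8 on the L1210-control, L1210-Fbxw11a and L1210-Fbxw11d arrays. A spot in the next row, for Tank, gave 38428 against 248 in L1210-control, and a spot in row 346 gave 198800 against 90.1. Both were flagged as outliers and left out. The Carm1 spot between the unnamed probe and the one in row 346 gave 4927 in L1210-Fbxw11c and 5039 in L1210-control.

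Of 28 measured Wnt ligands, receptors and antagonists, 3 were called higher and 2 lower, all of them dim. These are 17.9% of the list, beside 3.88% of all genes, bright ones included. By probe, the share called was 11.0% at signals of 30 to 100 and 7.72% at 100 to 300. Wnt8a, Dkk1 and Wnt2b were bounds, and 25 of the 28 genes were well above background on both arrays. The list's median of 0.16 became 0.06 with normexp and 0.23 with median centring. Wnt10b gave 89.5 and 215 (log2 ratio 1.26, row 42), Wnt8a was at least 2.24-fold higher and Wnt7b gave 37.3 and 75.6 (1.02). The antagonist Dkk1 was at least 4.57-fold lower from 67.9 and Wnt2b at least 2.77-fold lower from 41.1. The Dkk1 spot, in row 21, was uneven on the L1210-control array, and so was that of Wnt7b on the L1210-Fbxw11c array. The brighter ligands Wnt10a, at 17959 and 26783 (0.58), and Wnt6, at 748 and 1368 (0.87), did not pass. Ctnnb1 (β-catenin) gave 9625 and 9995 (0.05). Of its pathway and target genes, 2 of 26 were called, both higher (7.69%, beside 1.61% of all genes). Lgr5, a Wnt-dependent receptor, gave 207 and 443, and Ccnd2 (cyclin D2) was at least 6.94-fold higher from an uneven spot in row 80. Ccnd1 (cyclin D1) gave 12358 and 13793 (0.16) and Myc 11006 and 11525 (0.07). The median of the list was 0.02 (0.09 with median centring) and lay below 0 with quantile normalization.

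Cell cycle genes gave small ratios, mostly above 0 in the mitotic list and below 0 in the replication list. In a list of 28 mitotic genes none passed 2-fold, yet 27 lay above 0, with a median of 0.22, while 60.7% of bright genes lay above 0. All 25 bright members exceeded the bright gene median of 0.05. Kif20a, a mitotic kinesin, gave 11978 and 19096 (0.67), Ccnb1 (cyclin B1) 19275 and 27748 (0.53, with 0.49 and 0.26 from its other probes) and Plk1, a mitotic kinase, 32166 and 38850 (0.27). Aurkb was the exception, at 179 and 176 (-0.02). Of 28 DNA replication genes none passed, 23 lay below 0 and the median was -0.13. Cdt1, a replication licensing factor, gave 33268 and 24861 (-0.42), Orc1 914 and 610 (-0.58) and Mcm5 16990 and 14173 (-0.26), while Rrm2, a ribonucleotide reductase subunit, gave 58316 and 65879 (0.18). Among 23 G1 regulators Ccnd2 was the only call (4.35%, beside 1.61% of all genes called higher). Cdkn1a (p21) gave 883 and 614 (-0.52), and its dimmer probe read 0.18. Under the other scalings the mitotic median was 0.17 to 0.30 and the replication median -0.18 to -0.06.

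Cholesterol synthesis genes had a median of 0.22, and 18 of 23 measured members lay above 0. Hmgcs1, an early enzyme of the pathway, gave 17371 and 24530 (0.50), and Idi1, an isomerase of its isoprenoid steps, 7755 and 10994 (0.50). Stard4, a sterol transfer protein, was called lower, a bound from an uneven spot in row 39. Of 19 glycolysis genes 0 were called and 16 lay below 0, with a median of -0.11 (-0.04 with median centring), a value of -0.15 for Gapdh and of -0.64 for the lactate exporter Slc16a3. Proteasome and ribosomal protein genes had medians of 0.06 (0.03 to 0.13 under the other scalings) and -0.05 with no call, and the latter turned to 0.02 with median centring. Of 23 measured β-TrCP substrate genes, only Per2, a clock gene at 98.1 and 26.5 (-1.89), was called, which is 4.35% beside 2.27% of all genes called lower. The list had 12 members below 0 and a median of -0.02, which turned above 0 with median centring and the deposited values. Its 15 bright members had a median of -0.10, and they include Nfkbia, Nfkbie and Nfkb2, given above, as the 3 below -0.5. Atf4 (0.27) and Fbxo5 (0.28) were the highest bright members.

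**Figure D4:**
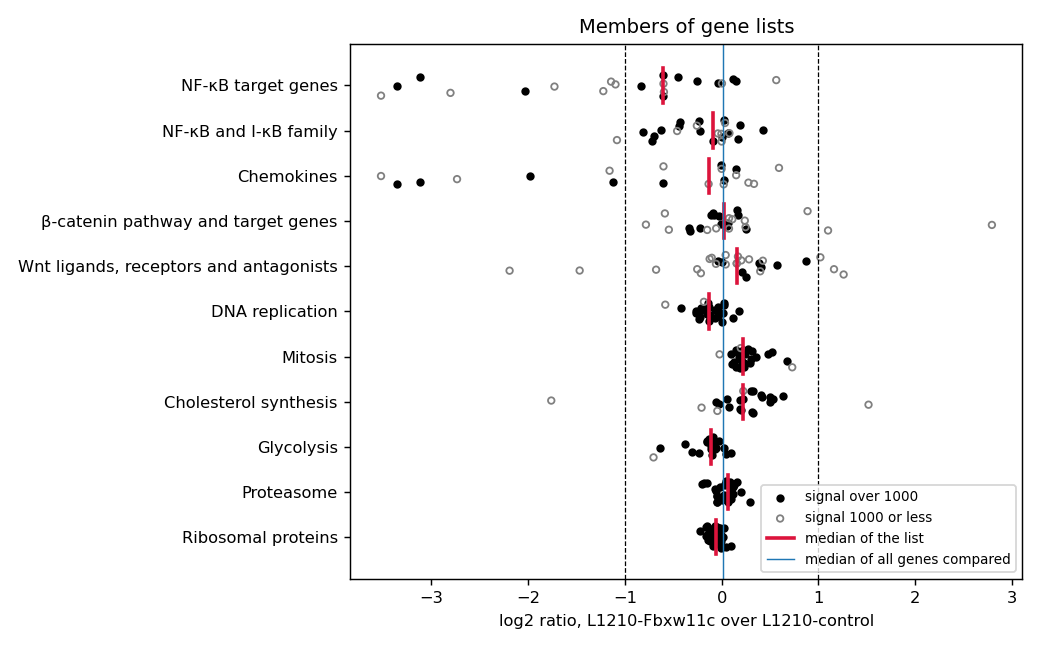
Log2 ratios (L1210-Fbxw11c over L1210-control, x axis) of the measured members of 11 gene lists, 1 point per gene, filled where the signal exceeded 1000 and drawn at the bound where 1 array was not well above background. Red bars are list medians, the blue line is the median of all genes compared and dashed lines mark 2-fold. NF-κB targets reach -3.52 with a median of -0.61, while mitotic genes cluster around 0.22 and replication genes around -0.13.

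Called members of other lists, all of them dim, are given next. These were Hba-a1 (1.08), Col6a3 (a bound of at least 2.33-fold higher), H2-Ab1 (1.02, with 0.87 from its second probe), Notch3 (1.06) and Itgb3 (1.01) among those higher. Their lists had 6 (Hba-a1), 19 (Col6a3), 14 (H2-Ab1), 17 (Notch3) and 20 (Itgb3) measured genes. The shares called higher were, in that order, 16.7%, 10.5%, 7.14%, 5.88% and 5%, beside 1.61% of all genes. Pou2af1 (at least 2.05-fold), Cd28 (-1.17), Zap70 (-1.10, row 27), Plxnb1 (at least 2.72-fold, uneven spot) and Mecom (at least 10.4-fold, uneven spot in row 3) were lower. The lists of Pou2af1, of Cd28 and Zap70, of Plxnb1 and of Mecom had 9, 13, 26 and 22 measured genes. In that order, 11.1%, 15.4%, 7.69% and 4.55% were called lower, beside 2.27% of all genes. By probe, the share called in either direction was 11.0% at signals of 30 to 100 and 7.72% at 100 to 300. A second probe of Zap70, in row 260 and brighter on the L1210-Fbxw11c array, read 0.04. Of 18 measured genes that the study chose for RT-PCR on these lines, 10 were called higher (55.6%, beside 1.61% of all genes) and 1 lower (5.56%, beside 2.27%), which is not independent evidence of direction. Among them were Pax8 at 169 and 441 (1.39), Emp2 at 72.0 and 157 (1.13, with 0.42 from its second probe), Plac8 (1.02, row 46, with 0.53 from its second probe), Arg1 (at least 2.10-fold, uneven control spot) and Gabbr1 (1.13, row 48). A second probe of Gabbr1 was a bound of at least 12.1-fold lower, from an uneven control spot in row 14, and the mean of both gave -1.24.

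Probes of the same gene agreed better at brighter signals. Across genes with a pair of probes well above background on both arrays, the correlation of their log2 ratios was 0.69 where the dimmer probe exceeded 1000 (1479 genes), 0.43 at 100 to 1000 (1981 genes) and 0.22 up to 100 (1051 genes). Genes are not independent replicates, and both probes share the same RNA and array. Of 14 genes called by the brighter probe at 100 to 1000, 12 had the same sign with the second and 7 were past 2-fold on both. Up to 100, 18 of 25 had the same sign and 5 were past 2-fold on both.

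The L1210-Fbxw11c array was also set against each of the other 3 arrays, of which the L1210-Fbxw11d array lay on slide 2. Of 36222 probes, 318 were at least 2-fold above all 3 and 13 below all 3. Among bright probes there were 1 and 0, the 1 being the unnamed probe on chromosome 4. Of the 318, 214 lay in rows 1 to 96, and 72 had even spots on both the L1210-Fbxw11c and L1210-control arrays. Among the 10 largest with a gene symbol and a signal over 100 were Nbeal1, Thsd4, Zfp641, Gnao1, Hist2h3c2, Pcdh9, Lag3 and Col5a3. These read 129 to 173 on the L1210-Fbxw11c array and were not well above background on the L1210-control array. All 8 lay in rows 10 to 76, on spots that were uneven on the L1210-Fbxw11c array, with a pixel SD of 0.38 to 0.70 of the mean. Other probes of Nbeal1, Gnao1 and Pcdh9, with higher mean levels over the 4 arrays, gave log2 ratios of 0.19, 0.14 and -0.21.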

How the data were processed

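Total RNA of 4 L1210 lines was labelled with Cy3 and hybridised to Agilent mouse 8x60K arrays, 1 per line. The authors deposited Feature Extraction output with background-subtracted signal intensity per spot (version 9.1 per the labels, 10.7.1.1 per the file headers), and a table of log2 values that they normalized across arrays by a method not given in the sources used here. The 75th percentile over gene spots (620.2 for L1210-control, 672 for L1210-Fbxw11c) was used for scaling. Outlier spots (167 and 139) were dropped, and the remaining spots were averaged by probe. A probe was called well above background if this held for 0.5 or more of those spots. For bounds, the dim array's level was the higher of the probe's own and the lowest among probes well above background (18.1 for L1210-control and 14.9 for L1210-Fbxw11c after scaling). With 1 array for each line, precision is limited by the number of arrays and no test could be run. The step that calls genes was checked on simulated data.

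Genes were taken by the deposited symbol, and 16649 of 17734 had a match in RefSeq (GRCm38.p6). The rule for named genes was Fbxw11, the 12 highest and 12 lowest bright genes, 8 and 8 at signals of 100 to 1000, 5 and 5 bounds, up to 6 called members of each of 36 lists, and up to 10 genes apart from the other 3 arrays. Some genes that the rule names are not reported here. Other genes were named for their role or after their values were seen. Members and lists were chosen with earlier results of these data known. Alternatives were normexp (limma 3.58.1 in R 4.3.3, offset 50), quantile normalization, median centring, the deposited values, other filters on dim probes, outlier spots kept, a 3-fold threshold and the mean over a gene's probes. Python 3.11.15 was used. Positions of probes are mm9 as deposited.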

Additional observations from a re-analysis of the deposited data

Results flagged for a closer look

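Dkk1, Wnt2b and Slurp1 differed from L1210-control in opposite directions in 2 of the lines. Dkk1 had a log2 ratio of at most -2.19 in L1210-Fbxw11c (67.9 in L1210-control and 4.41, not well above background, in L1210-Fbxw11c) and of 1.05 in L1210-Fbxw11a, where its signal was 141. Wnt2b had at most -1.47 in L1210-Fbxw11c (41.1 and 10.6) and 1.67 in L1210-Fbxw11a, at 131. Slurp1, a secreted protein of skin, had -1.13 in L1210-Fbxw11c (1584 and 726, even spots) and 1.24 in L1210-Fbxw11a, at 3751. In L1210-Fbxw11d the ratios to L1210-control were at most -2.71 for Dkk1, -1.14 for Wnt2b and -0.17 for Slurp1. All these comparisons share the L1210-control array, and the difference between the lines was not tested. The spots lay in rows 21, 97 and 376 of the array, and that of Dkk1 was uneven on the L1210-control array.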

How the results depend on the processing

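Over all probes, 627 were called higher and 1028 lower. These counts became 114 and 331 with normexp, 2073 and 2616 with no filter on dim probes, 329 and 506 with both arrays well above background, and 235 and 498 at 3-fold. Other choices, made after seeing the data, gave 105 and 134 of 18286 probes (rows 193 to 384 only) and 336 and 499 (uneven spots left out). For bright probes, 19 higher and 23 lower became 5 and 7 at 3-fold and 7 and 13 of 5943 in rows 193 to 384, and the higher count became 29 with median centring. The share of calls that were higher was 37.9%, and it was 25.6% with normexp, 44.6% with median centring, 43.7% with quantile normalization and 43.8% with the deposited values. The other counts stayed within 1.5 times. Of 198 named genes, 101 moved by more than the spot SD with normexp, which adds an offset of 50, 26 when all probes of a gene were averaged and 3 with the deposited values. Of those past 2-fold, Gabbr1 alone reversed, from 1.13 to -1.24 when its probes were averaged. That mean takes in its second probe, a bound of at least 12.1-fold lower from an uneven L1210-control spot. Why the Gabbr1 probes differ, and why the other genes moved, was not tested. No paired analysis was possible because each line has 1 array. Dim probes near background limit what can be read.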

Other observations

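Gene ontology terms with at least 20 bright genes (627 terms) were ranked by median log2 ratio, as a description made after seeing the data. The highest was the sterol biosynthetic process (20 genes, median 0.23, 15 above 0), followed by smoothened signalling, the Hedgehog pathway (25 genes, median 0.22, 21 above 0). In the latter Gli1 gave 1.12, Tctn2 0.66, and the ciliary transport genes Ift57 0.46 and Ift80 0.44. Spindle microtubule genes had a median of 0.19 (23 of 25 above 0). Among the lowest was the glycolytic process (20 genes, median -0.09, 15 below 0). Gli1 was the only gene of the smoothened term past 2-fold.

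Median log2 ratios of bright probes by chromosome ranged from 0.00 on chromosome 9 to 0.08 on chromosome 13.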
